A study of Mus musculus with 2 samples.

Results

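The neutrophils of the lung of mouse pups were followed after blockade of Hedgehog ligands. They are the cells of cluster 1 in the authors' deposited annotation, 710 of 22963 annotated cells: 454 of 9454 in the library from 5E1-treated pups and 256 of 13509 in the library from IgG-treated pups. Both libraries were droplet single-cell RNA sequencing (10x Genomics 3' v2) of whole lung at postnatal day 6. All pups carried 1 Gli1CreERT2 allele and the R26RtdT reporter and received tamoxifen at postnatal day 1, so that no wild-type pup enters any value below. At day 3 one group received 5E1, an antibody that blocks Hedgehog ligands, and the other control IgG. The lungs of 3 pups were pooled per condition before sequencing, which gives 1 library per condition. Differences between the groups therefore have no replicate check and no test, and 95% intervals below cover counting error only. Y-linked UMIs were found in 50 of 454 5E1 cells and in 0 of 256 IgG cells of the cluster, so the sexes of the pooled pups cannot be told apart from the treatment.

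Neutrophils are short-lived phagocytes made in the bone marrow. They fill their granules in waves as they mature: primary granules with myeloperoxidase and elastase first, specific granules with lactoferrin, cathelicidin and neutrophilic granule protein next, and gelatinase granules last. Circulating and tissue neutrophils have largely stopped transcribing the early granule genes, respond to chemokines through CXCR2 and to G-CSF through its receptor, and make interleukin 1 beta and the chemokine CXCL2 when stimulated. C/EBP epsilon and PU.1 are known drivers of granule gene transcription, and type I interferon acts through a promoter element, the ISRE.

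The sequences shown are the 250 bases before the annotated start of genes that lead the contrasts described below (RefSeq, GRCm38.p6). Ngp and Ltf, genes of specific granule proteins, lead one range of neutrophils. Il1b, the gene of interleukin 1 beta, leads the other, and Isg15, a ubiquitin-like protein induced by interferon, is among the genes lower in the 5E1 library. Capitals mark matches on either strand to the C/EBP word TTNCNNAA, the PU.1 core GAGGAA or the ISRE word, which is GAAA, any 2 bases and GAAA again, and adjoining or overlapping matches run together.
Ngp (chr9:110419558-110419807, + strand): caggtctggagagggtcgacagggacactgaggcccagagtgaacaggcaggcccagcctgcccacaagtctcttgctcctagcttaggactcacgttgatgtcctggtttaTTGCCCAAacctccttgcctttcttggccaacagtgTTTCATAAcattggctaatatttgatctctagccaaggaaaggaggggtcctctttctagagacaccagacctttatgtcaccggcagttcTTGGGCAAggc
Ltf (chr9:111019042-111019291, + strand): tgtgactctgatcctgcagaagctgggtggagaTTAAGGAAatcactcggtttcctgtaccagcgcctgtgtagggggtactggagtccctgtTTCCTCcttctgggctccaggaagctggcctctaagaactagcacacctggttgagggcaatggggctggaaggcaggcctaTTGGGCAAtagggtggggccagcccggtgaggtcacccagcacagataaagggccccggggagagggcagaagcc
Il1b (chr2:129371140-129371389, - strand): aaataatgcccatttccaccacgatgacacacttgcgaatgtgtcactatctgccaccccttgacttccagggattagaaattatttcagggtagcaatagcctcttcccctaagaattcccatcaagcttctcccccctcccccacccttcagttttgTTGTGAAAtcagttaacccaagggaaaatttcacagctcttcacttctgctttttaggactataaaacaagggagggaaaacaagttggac
Isg15 (chr4:156200819-156201068, - strand): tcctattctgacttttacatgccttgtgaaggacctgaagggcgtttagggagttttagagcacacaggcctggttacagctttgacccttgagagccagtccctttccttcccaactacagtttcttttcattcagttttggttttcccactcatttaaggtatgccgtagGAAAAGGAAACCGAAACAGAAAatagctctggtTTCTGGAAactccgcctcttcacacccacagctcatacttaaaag
The Ngp window held 3 C/EBP words, the Ltf window 2 of them and 1 PU.1 core, and the Il1b window 1 C/EBP word. The Isg15 window held 3 overlapping ISRE words and 1 C/EBP word. Of all 32851 promoter windows of this length, 36.8% held the C/EBP word, 23.3% the PU.1 core and 2.98% the ISRE word. Among 14 interferon response genes that were measured and had a promoter entry, 5 held the ISRE word: Isg15, Ifitm2, Bst2, Rsad2 and Ifit1. A match is a description of the letters and does not show binding.

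The label neutrophil held for most cells of the cluster. Against all other cells, the genes with the highest ratio of CPM (a gene's UMIs scaled so that the summed cells of each library have the same total) included Ly6g, a neutrophil surface protein (646-fold), Ngp (626-fold), Camp, the gene of cathelicidin (589-fold), Ltf (502-fold) and Retnlg, a resistin-like secreted protein (439-fold). These genes were among those the cells were clustered on, so the folds are a description only. The calprotectin genes S100a8 and S100a9 alone took 22.1% of the cluster's UMIs in the 5E1 library and 19.8% in the IgG library. A family of 9 stefin A cysteine protease inhibitors (chr16:36156811-36455392) took another 9.49% in the 5E1 library and 8.78% in the IgG library. Its members are near-identical copies, so values of single stefins are uncertain. The 10 genes of the primary granule list together had 252 UMIs in the 5E1 library and 180 in the IgG library. Of these the protease inhibitor gene Serpinb1a gave 202 in the 5E1 library and 130 in the IgG library. Ctsc, which activates granule proteases, gave 36 in the 5E1 library and 26 in the IgG library. The serine protease and myeloperoxidase genes were close to 0: Elane had 0 UMIs in both libraries, Mpo 1 UMI in the 5E1 library and 0 in the IgG library, Prtn3 0 in the 5E1 library and 2 in the IgG library, and Ctsg 0 in the 5E1 library and 1 in the IgG library. The proliferation marker Mki67 had 4 UMIs in 5E1 cells and 12 in IgG cells.

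Neutrophils were small in RNA content. The cluster held 1172269 UMIs in the 5E1 library and 747819 in the IgG library, with medians of 1964.5 UMIs per 5E1 cell and 2456.5 per IgG cell. Its median of 666.5 genes per cell was the lowest of the 23 clusters, and the smallest cell in each library had 500 genes, the lowest number in the annotation. No barcode of the cluster was shared by both libraries within it, while 184 barcodes were shared among annotated cells, and 9 barcodes of 5E1 neutrophils also occurred in other clusters of the IgG library, 2 the other way round.

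Some cells of cluster 1 were low in the markers. In 26 of 454 5E1 cells and 32 of 256 IgG cells, under 2% of the UMIs came from the 10 neutrophil marker genes, and these cells held 6.10% of the cluster's UMIs in the 5E1 library and 15.1% in the IgG library. Of these, 11 5E1 cells and 13 IgG cells had 5 or more UMIs of T and NK cell markers, and 14 5E1 cells and 19 IgG cells had an Il1b UMI, so that these cells are not of 1 kind. One IgG cell alone had 40184 UMIs, 5.37% of the IgG total, and 668 of the 676 UMIs of the platelet list in that library, including all 128 UMIs of Itga2b and all 222 of Clec1b. Haemoglobin and other erythroid UMIs also came mainly from single cells, with 1631 of 2031 in 1 5E1 cell and 4928 of 5367 in 1 IgG cell. Of the 15 genes with the lowest 5E1 to IgG ratio by the fixed rule, 14 had over 50% of their IgG UMIs in the cell with 40184 UMIs, among them Itga2b, Gp5, Treml1 and Clec1b, and all 15 had over 50% in cells under 2%. The transcription factor gene Jun had a ratio of 0.449 with all cells and 1.10 without the cells under 2%, and Slc2a3, a glucose transporter, 0.520 and 1.77. Results are therefore given with all 710 cells and, where the value moves, with the 428 5E1 cells and 224 IgG cells at or above 2%.

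Neutrophils made up a larger share of the 5E1 library. They were 4.80% of annotated 5E1 cells (95% Clopper-Pearson interval 4.38 to 5.25%), against 1.90% of IgG cells (1.67 to 2.14%), a ratio of 2.53 (2.17 to 2.97). Without the cells under 2% they were 4.53% of 5E1 cells and 1.66% of IgG cells, a ratio of 2.73. Among clusters with more Ptprc, the pan-leukocyte gene, than epithelial, endothelial or fibroblast marker, neutrophils were 15.7% of 5E1 cells and 7.16% of IgG cells, a ratio of 2.19. Counting instead every annotated cell with at least 2 UMIs of 3 of the 4 markers Ngp, Camp, Retnlg and S100a9 gave 2.20% in the 5E1 library and 1.42% in the IgG library, a ratio of 1.55. A cell passes this rule only with Ngp or Camp, so the rule leaves out neutrophils without them. Ngp was found in 196 of 454 5E1 cells and 166 of 256 IgG cells of the cluster, and Camp in 189 5E1 cells and 160 IgG cells. The annotation kept barcodes with at least 500 genes, and barcodes left out below that number included many with neutrophil markers: counting those with at least 10% marker UMIs too gave 6.01% of deposited 5E1 barcodes and 3.09% of deposited IgG barcodes, a ratio of 1.95. Without cells that carry a Y-linked UMI the ratio was 3.35, but this filter removed 3094 of 9454 5E1 cells, 50 of them among the 454 neutrophils, and 4 of 13509 IgG cells. The share was higher in the 5E1 library under every one of these counts. The ratio ran from 1.55, by the rule that needs Ngp or Camp, to 3.35. Leaving out cells with 5 or more UMIs of other cell types' markers gave 5.76, but this filter removed 329 5E1 cells and 225 IgG cells. Its lists held genes found in many cells of the cluster. Cd3d was found in 237 5E1 and 114 IgG cells, and Ly6c2 in 180 5E1 and 158 IgG cells. Why they were found there was not tested.

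**Figure D1:**
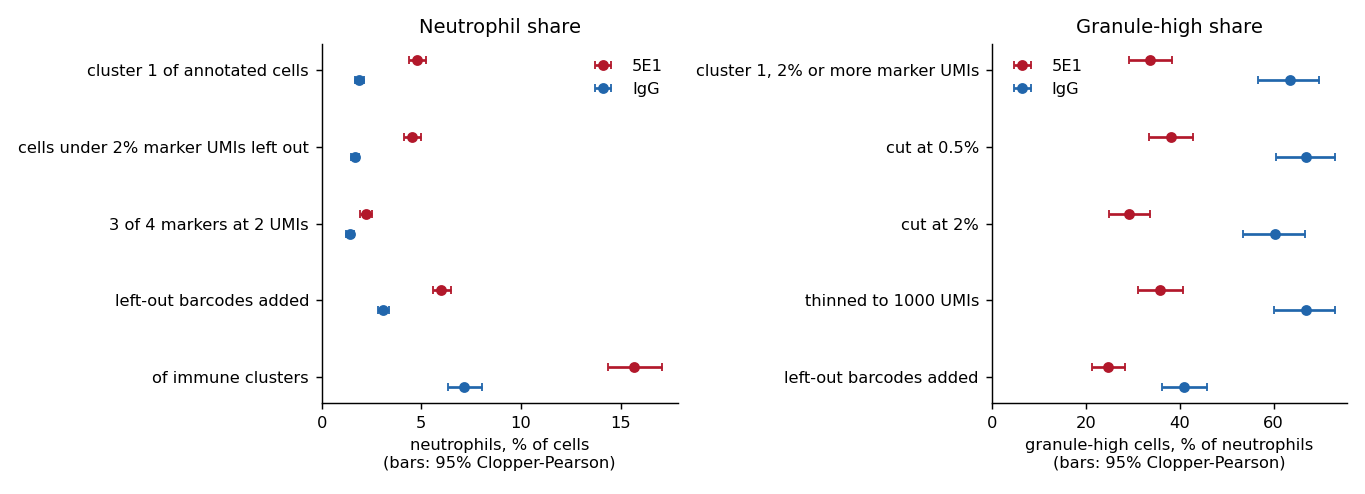
Left, neutrophils as a percentage of cells in the 5E1 (red) and IgG (blue) libraries under 5 ways of counting; right, granule-high cells as a percentage of neutrophils under 5 settings. Points are shares of 1 library and bars 95% Clopper-Pearson intervals; 5E1 lies above IgG in every line on the left (4.80% and 1.90% in the first) and below it in every line on the right (33.6% and 63.4% in the first).

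The neutrophils fell into a pair of ranges by their granule transcripts. Cells with at least 1% of their UMIs in Ngp, Camp and Ltf are called granule-high here and the others granule-low, among cells at or above 2% neutrophil marker UMIs. This is a range cut after the values were seen and not a cell type, and cells between 0.5 and 2% lie near it: 19 granule-high and 19 granule-low 5E1 cells, and 7 and 8 IgG cells. Of the 284 granule-low 5E1 cells 222 had no UMI of the 3 genes, as had 53 of the 82 granule-low IgG cells. Il1b ran the other way across cells: it was detected in 16.7% of granule-high 5E1 cells and 21.8% of granule-high IgG cells, but in 93.3% of granule-low 5E1 cells and 93.9% of granule-low IgG cells. Across cells thinned to 1000 UMIs, Spearman's rho of Ngp with Camp was 0.93 in 408 5E1 cells and 0.87 in 214 IgG cells, and that of Ngp with Il1b was -0.81 in 5E1 cells and -0.70 in IgG cells. These are correlations across cells of 1 library each, which share their library and depth, and are given as a description. Granule-high cells also held more RNA, with medians of 3845.5 UMIs in the 5E1 library and 3100 in the IgG library, while granule-low cells had 1453 in the 5E1 library and 1392.5 in the IgG library.

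**Figure D2:**
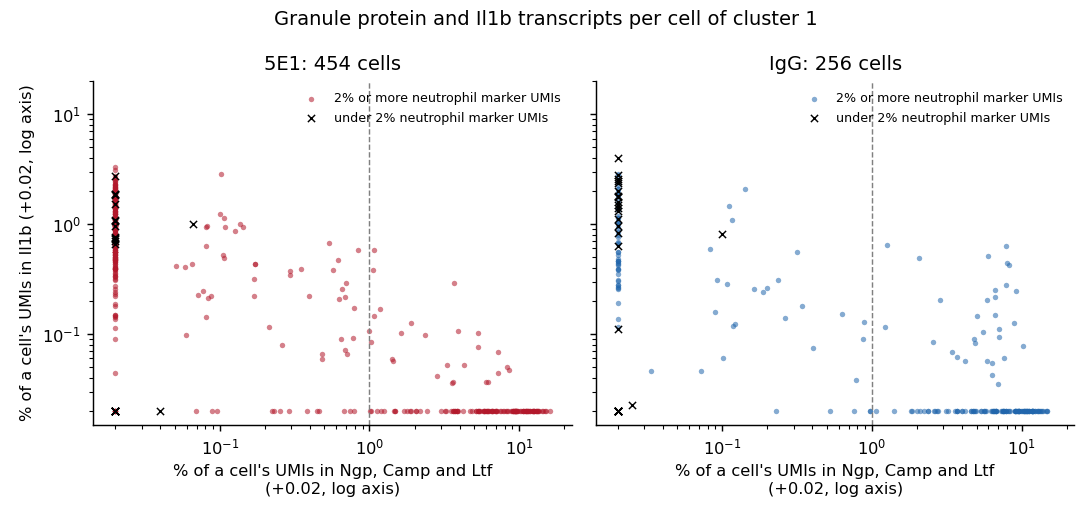
Each point is 1 cell of cluster 1, 454 in the 5E1 library (left) and 256 in the IgG library (right), with the percentage of its UMIs in Ngp, Camp and Ltf on the x axis and in Il1b on the y axis (log axes, 0.02 added so that zeros show). Crosses are cells under 2% neutrophil marker UMIs, the dashed line is the 1% cut; most cells lie along one of the axes, with Il1b and no granule transcripts at the left or granule transcripts and no Il1b at the bottom right.

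The ranges were compared within each library, over 4757 genes with 20 or more UMIs in all. Of these, 14.8% were higher in granule-high cells in both libraries and 53.7% lower in both. The cut was set on granule genes, so the values are a description. Of 13 other specific granule features, 10 were higher in granule-high cells in both libraries and 3 lower in both. Beside the 3 genes that set the cut, the protease inhibitor gene Serpinb1a was higher in granule-high than in granule-low cells. The difference was 3.70 (log2) in the 5E1 library and 3.85 in the IgG library. Lcn2, the siderophore-binding lipocalin of specific granules, was higher by 3.02 in the 5E1 library and 4.04 in the IgG library, and Cebpe, the transcription factor that drives specific granule genes, by 1.35 in the 5E1 library and 2.04 in the IgG library. Cybb, the catalytic subunit of the phagocyte NADPH oxidase, was higher by 2.61 in the 5E1 library and 2.99 in the IgG library. The chitinase-like gene Chil3 had 390 UMIs in granule-high 5E1 cells and 265 in granule-high IgG cells, but 3 in granule-low 5E1 cells and 0 in granule-low IgG cells.

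Cytokine and NF-kB response genes were lower in granule-high cells in both libraries in 19 of 20 members. The same held for 14 of 15 pattern recognition and Fc receptors and 11 of 16 chemotaxis and adhesion receptors, while 2 of these 16 were higher in both libraries. Of 6 gelatinase granule genes 5 were lower in granule-high cells in both. The log2 difference between granule-high and granule-low cells was -5.65 in the 5E1 library and -3.95 in the IgG library for Il1b. It was -4.00 in the 5E1 library and -4.28 in the IgG library for Ccrl2, a chemerin-binding receptor, and -3.30 in the 5E1 library and -3.29 in the IgG library for Cxcl2. Csf3r, the G-CSF receptor, differed by -3.41 in the 5E1 library and -2.67 in the IgG library, and Il1r2, the decoy receptor of interleukin 1, by -2.75 in the 5E1 library and -3.50 in the IgG library.

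The makeup of the cluster by range differed between the libraries. Granule-high cells were 144 of 428 5E1 neutrophils, 33.6% (29.2 to 38.3%), against 142 of 224 IgG neutrophils, 63.4% (56.7 to 69.7%), a ratio of 0.531 (0.418 to 0.674). With the cut at 0.5% the ratio was 0.569 and at 2% it was 0.485. After thinning to 1000 UMIs it was 0.536, and without cells carrying a Y-linked UMI 0.490. The Y-linked filter acted on the 5E1 library only. It left 119 granule-high cells of 383 there and the same 142 of 224 in the IgG library. Adding the marked barcodes outside the annotation gave 24.8% granule-high in the 5E1 library and 41.0% in the IgG library, a ratio of 0.604. Against all annotated cells, granule-high neutrophils were 1.52% of 5E1 cells and 1.05% of IgG cells, a ratio of 1.45 (1.14 to 1.84). Granule-low neutrophils were 3.00% of 5E1 cells and 0.607% of IgG cells, a ratio of 4.95 (3.86 to 6.41). This ratio depends on the annotation's minimum of 500 genes. Granule-low cells lay near it, with medians of 575.5 genes in the 5E1 library and 565 in the IgG library. Of the marked barcodes outside the annotation, only 6 of 178 in the 5E1 library and 35 of 208 in the IgG library were granule-high. Counting the others as granule-low would make the ratio smaller than 4.95. The larger share of neutrophils in the 5E1 library lay mostly in the granule-low range.

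Detection per cell at equal depth gave the same order. At 1000 UMIs per cell, Ngp was found in 43.8% of 429 5E1 cells and 66.9% of 236 IgG cells, and Il1b in 59.9% of 5E1 cells and 38.6% of IgG cells. In cluster 4, which carries B cell markers and should lack them, Ngp was found in 0.704% of 5E1 cells and 1.07% of IgG cells, and Il1b in 1.17% of 5E1 cells and 1.07% of IgG cells. Without thinning, Ngp was found in 43.2% of 5E1 neutrophils and 64.8% of IgG neutrophils, and Il1b in 66.7% of 5E1 neutrophils and 49.6% of IgG neutrophils. The median depth of cluster 4 was 3325 UMIs in the 5E1 library and 2498.5 in the IgG library.

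Over the whole cluster the 5E1 library had higher levels of many receptors, inflammatory genes and gelatinase granule genes, and lower levels of interferon response genes. Of 5444 genes whose UMIs in the 5E1 and IgG libraries summed to 20 or more, 3.07% were past 2-fold higher in the 5E1 library, 10.1% past 2-fold lower, 42% higher by any amount and 58% lower, with a median log2 ratio of -0.11. Without the cells under 2%, 3.68% of 4757 genes were past 2-fold higher and 4.39% past 2-fold lower, 49.9% higher and 50.1% lower by any amount. Because a summed level moves with the mix of ranges, values within granule-high and within granule-low cells are given for several of the lists and leading genes. Within granule-high cells 2.65% of 3317 genes were past 2-fold higher and 4.22% past 2-fold lower, with 43.4% higher and 56.6% lower by any amount. Within granule-low cells 5.36% of 2669 were past 2-fold higher and 6.93% past 2-fold lower, with 47.5% higher and 52.5% lower by any amount.

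**Figure D3:**
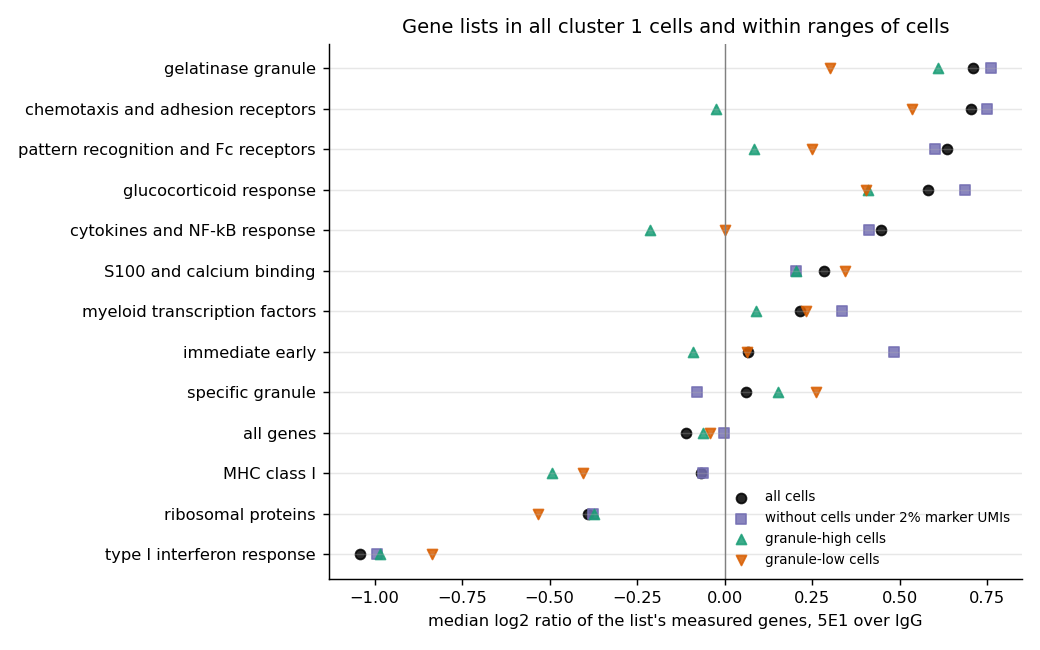
Median log2 ratio of 5E1 over IgG CPM for the measured members of gene lists, in all cells of the cluster, without cells under 2% neutrophil marker UMIs, and within granule-high and granule-low cells. The interferon list lies at -1.04 in all cells and -0.99 within granule-high cells, while the chemotaxis receptors lie at 0.70 in all cells and -0.03 within granule-high cells.

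Chemotaxis and adhesion receptors were higher in the 5E1 library. Of 16 measured members, 14 were higher and 2 lower, 5 of them past 2-fold higher, with a median of 0.70. Csf3r had 293 CPM in 5E1 cells and 123 CPM in IgG cells, a ratio of 2.39 (1.89 to 3.04), and Ccr1, a receptor of inflammatory chemokines, 344 CPM in 5E1 cells and 146 CPM in IgG cells, a ratio of 2.36. Cxcr2, the receptor of the neutrophil chemokines, had 290 CPM in 5E1 cells and 162 CPM in IgG cells, a ratio of 1.79. Fpr1, the receptor of bacterial formyl peptides, had a ratio of 2.08. The intervals of these ratios did not include 1.

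Within the ranges the receptor difference was smaller. In granule-high cells 7 of 15 measured members were higher and 8 lower, with a median of -0.03, and in granule-low cells 15 of 16 were higher with a median of 0.53, none of them past 2-fold. Csf3r had a ratio of 0.973 in granule-high cells and 1.63 (1.21 to 2.23) in granule-low cells. Il1r2 was above 1 in both, at 2.27 and 1.34, as was Ccr1 at 1.68 and 1.41. Pattern recognition and Fc receptors had 15 of 15 members higher over all cells, 3 of them past 2-fold, with a median of 0.64, while within granule-high cells 9 of 14 were higher with a median of 0.08 and within granule-low cells 13 of 15 with a median of 0.25. Cd14, the lipopolysaccharide co-receptor, had 537 CPM in 5E1 cells and 238 CPM in IgG cells, a ratio of 2.26, with 1.27 in granule-high and 2.27 in granule-low cells.

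Cytokine and NF-kB response genes were higher over all cells in 15 of 20 members and lower in 5, with a median of 0.45. Il1b had 3187 CPM in 5E1 cells and 1595 CPM in IgG cells, a ratio of 2.00 (1.87 to 2.13). Cxcl2 had 2430 CPM in 5E1 cells and 1080 CPM in IgG cells, a ratio of 2.25 (2.08 to 2.44). Within the ranges they differed in size and, for Il1b, in direction. Granule-high cells had 140 CPM of Il1b in the 5E1 library and 336 CPM in the IgG library, a ratio of 0.418 (0.318 to 0.545). Of the 86 Il1b UMIs of granule-high 5E1 cells, 47 came from the 19 cells under 2% granule UMIs, as did 20 of the 166 in IgG cells, from 7 cells. In granule-high cells at or above 2% the levels were 72.2 CPM in the 5E1 library and 306 CPM in the IgG library, a ratio of 0.236. Granule-low cells had 7077 CPM in the 5E1 library and 5195 CPM in the IgG library, a ratio of 1.36 (1.26 to 1.48). Cxcl2 had ratios of 1.27 and 1.28 in granule-high and granule-low cells. The list's median within granule-high cells was -0.21, with 6 of 15 higher, and within granule-low cells 0.00, with 9 of 18 higher.

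The chemokine genes Ccl3 and Ccl4 had ratios below 1 over all cells. Ccl3 had 114 CPM in 5E1 cells and 205 CPM in IgG cells (ratio 0.559), and Ccl4 53.7 CPM in 5E1 cells and 167 CPM in IgG cells (ratio 0.322). These counts were concentrated, since 24 of the 63 Ccl4 UMIs in the 5E1 library and 48 of the 125 in the IgG library came from 1 cell each. In granule-low cells Ccl3 was at 0.485 and Ccl4 at 0.269, but at 0.893 (0.582 to 1.41) and 0.852 (0.406 to 1.95) without the cell of each library that held most UMIs of the gene. Ccl3 was found in 18.7% of granule-low 5E1 cells and 13.4% of granule-low IgG cells. In granule-high cells, where 1 IgG cell held 39 of 52 Ccl3 UMIs, Ccl3 was at 0.217 and at 0.682 (0.277 to 1.65) without those cells, and Ccl4 was at 0.0790 and 0.201.

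**Figure D4:**
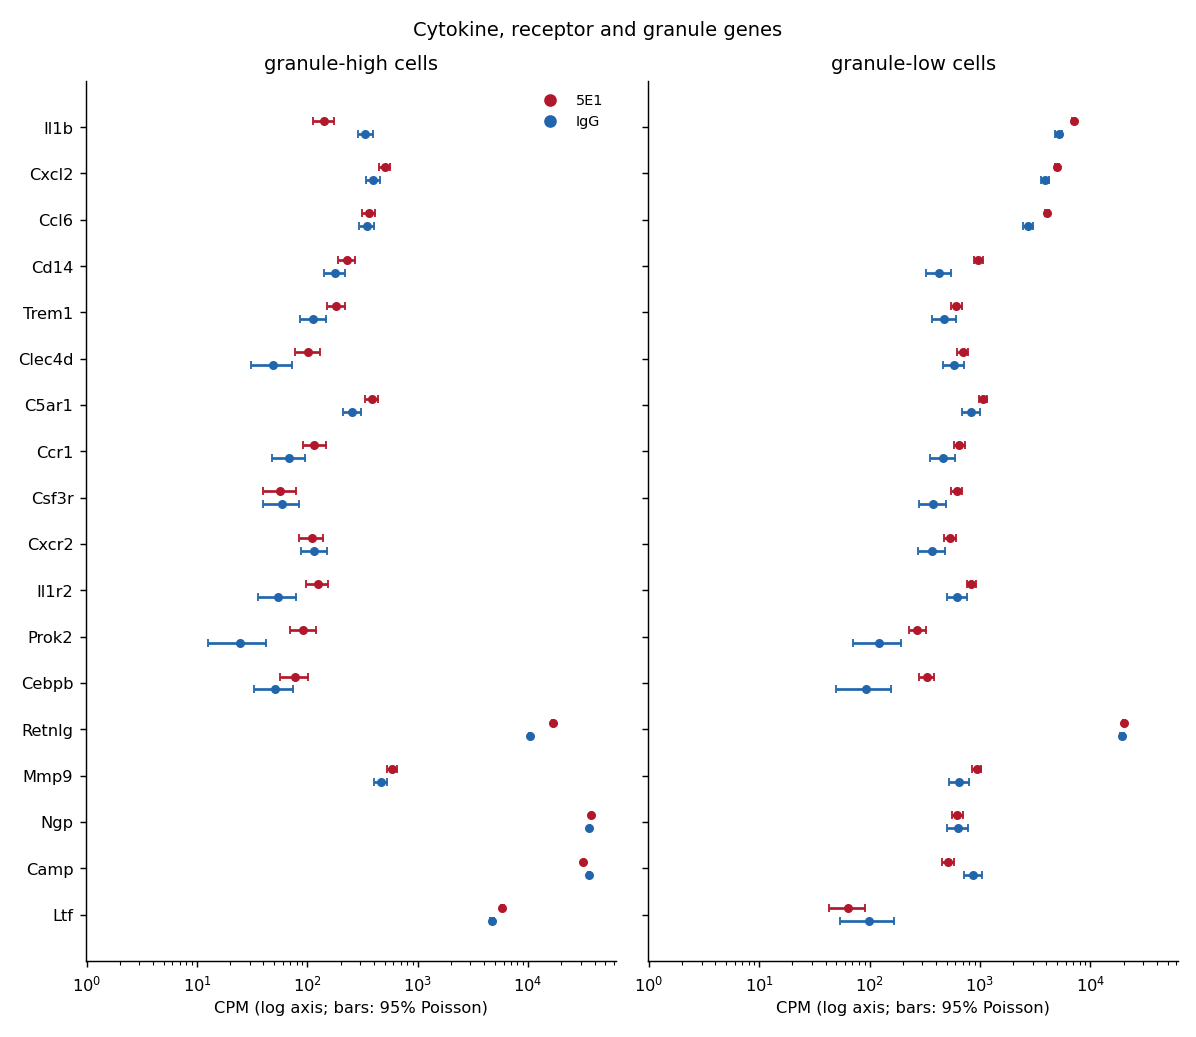
CPM (log axis) of cytokine, receptor and granule genes within granule-high cells (left) and granule-low cells (right), with the 5E1 library in red and the IgG library in blue; points are 1 library each and bars 95% Poisson intervals. Il1b lies at 140 CPM for 5E1 and 336 CPM for IgG in granule-high cells, and at 7077 CPM for 5E1 and 5195 CPM for IgG in granule-low cells. Ngp, Camp and Ltf set the cut between the ranges.

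The gene with the highest ratio by the fixed rule was Wfdc17, a whey acidic protein domain protein (chr11:83703991-83706268, + strand, GRCm38.p6). It had 429 CPM in 5E1 cells and 57.5 CPM in IgG cells, a ratio of 7.46 (5.46 to 10.4), and was found in 108 of 454 5E1 cells and 23 of 256 IgG cells. It had a ratio of 4.14 (2.92 to 6.05) in granule-low cells, while granule-high cells had 17.9 CPM in the 5E1 library and 14.2 CPM in the IgG library, from 11 UMIs in 5E1 cells and 7 in IgG cells. Next came Prok2, a secreted chemotactic protein of neutrophils, with 161 CPM in 5E1 cells and 41.5 CPM in IgG cells (ratio 3.89), and then Cebpb, the transcription factor C/EBP beta of emergency granulopoiesis, with 189 CPM in 5E1 cells and 58.8 CPM in IgG cells (ratio 3.20). Prok2 was at 3.76 in granule-high and 2.24 in granule-low cells. Cebpb was at 1.52 (0.914 to 2.57) in granule-high cells and 3.58 (2.03 to 6.87) in granule-low cells. The rest of the 15 were St3gal6, Amica1, H2-Q10, Sirpb1b, Pla2g7, Cd300lb, Arg2, Asprv1, Csf3r, Mrgpra2a, Ccr1 and Slc16a3, at ratios of 2.34 to 3.06 over all cells. These ratios move with the mix of ranges. In granule-low cells Asprv1 had 1854 CPM in the 5E1 library and 1313 CPM in the IgG library, and Pla2g7 595 CPM and 369 CPM. In granule-high cells Asprv1 had 450 CPM in the 5E1 library and 235 CPM in the IgG library, and Pla2g7 32.6 CPM and 26.3 CPM. Both differed less within each range than over all cells. Leaving out the cells under 2% left 9 of these 15 among the 15 highest, and the highest was then Ccl5, a chemokine of T and NK cells, at 51.9, of which 177 of 184 5E1 UMIs over all cells came from 1 cell.

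Granule genes differed by class. Gelatinase granule genes were higher in 6 of 7 measured members, 2 of them past 2-fold, with a median of 0.71, and in 5 of 5 members within granule-high and within granule-low cells. Mmp9, the gelatinase itself, had 699 CPM in 5E1 cells and 433 CPM in IgG cells, a ratio of 1.61, with 1.27 in granule-high and 1.44 in granule-low cells. Specific granule genes were 8 higher and 8 lower of 16 features, with a median of 0.06, which was -0.32 after thinning to 1000 UMIs and -0.52 without cells holding 5 or more UMIs of other cell types. They had a median of 0.15 in granule-high cells and 0.26 in granule-low cells. Camp had 16713 CPM in 5E1 cells and 23658 CPM in IgG cells, a ratio of 0.706 (0.692 to 0.721), and Ngp 19880 CPM in 5E1 cells and 23884 CPM in IgG cells, a ratio of 0.832. Camp was at 0.887 within granule-high and 0.590 within granule-low cells, and Ngp at 1.04 and 0.984. The ranges were cut on Ngp, Camp and Ltf, so levels of these genes within a range depend on the cut and are a description. Retnlg had 17186 CPM in 5E1 cells and 10513 CPM in IgG cells, a ratio of 1.63, with 1.61 in granule-high cells and 1.05 in granule-low cells. Of the other lists, 7 of 8 S100 genes were higher (median 0.28), as were 12 of 18 myeloid transcription factors (median 0.22) and 5 of 8 NADPH oxidase genes (median 0.10), while 88 of 95 ribosomal protein genes were lower (median -0.39). The counts of these other lists are over all cells and move with the mix of ranges.

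Interferon response genes were lower in the 5E1 library over all cells and within both ranges. Of 16 measured members of a type I interferon list, 12 were lower and 4 higher, 8 of them past 2-fold lower and none past 2-fold higher, with a median of -1.04. The same list had a median of -0.99 without the cells under 2% and within granule-high cells, and -0.83 within granule-low cells. After thinning to 1000 UMIs 9 members were measured, 6 of them lower and 4 past 2-fold lower, with a median of -0.13. Isg15, whose promoter is shown above, had 35.8 CPM in 5E1 cells and 118 CPM in IgG cells, a ratio of 0.304 (0.206 to 0.445), and was found in 32 of 454 5E1 cells and 49 of 256 IgG cells. It was at 0.202 in granule-high and 0.248 in granule-low cells. Zbp1, a sensor of left-handed nucleic acids, had 6 UMIs in 5E1 cells and 53 in IgG cells. Ifitm3, an antiviral membrane protein, had 827 CPM in 5E1 cells and 1506 CPM in IgG cells, a ratio of 0.550 (0.504 to 0.599), at 0.518 in granule-high and 0.552 in granule-low cells.

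Members did not all go the same way. The higher members were Ifitm1, Ifitm2, Slfn1 and Slfn4. Ifitm2 was at 1.81 over all cells, 1.02 in granule-high and 1.68 in granule-low cells, and Ifitm1 at 1.66, 0.355 and 1.23. For Ifitm1, 60 of 84 UMIs in granule-high IgG cells and 52 of 112 in granule-low IgG cells came from 1 cell each. Without the cell of each library with most Ifitm1 UMIs, its ratio over all cells was 2.21 (1.82 to 2.68). Counts were low for several members: Ifit1 had 4 UMIs in 5E1 cells and 29 in IgG cells, of which 18 came from 1 cell, and Rsad2 had 5 in 5E1 cells and 21 in IgG cells, of which 10 came from 1 cell. Among genes outside the list, chosen after their values were seen, Rtp4 was at 0.420, Ifi27l2a at 0.432, Ly6e at 0.551 and Psmb9, an immunoproteasome subunit, at 0.545 without the cells under 2%. MHC class I genes had a median of -0.49 in granule-high cells, with 7 of 9 lower, and -0.41 in granule-low cells, with 8 of 9 lower, against -0.07 over all cells.

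**Figure D5:**
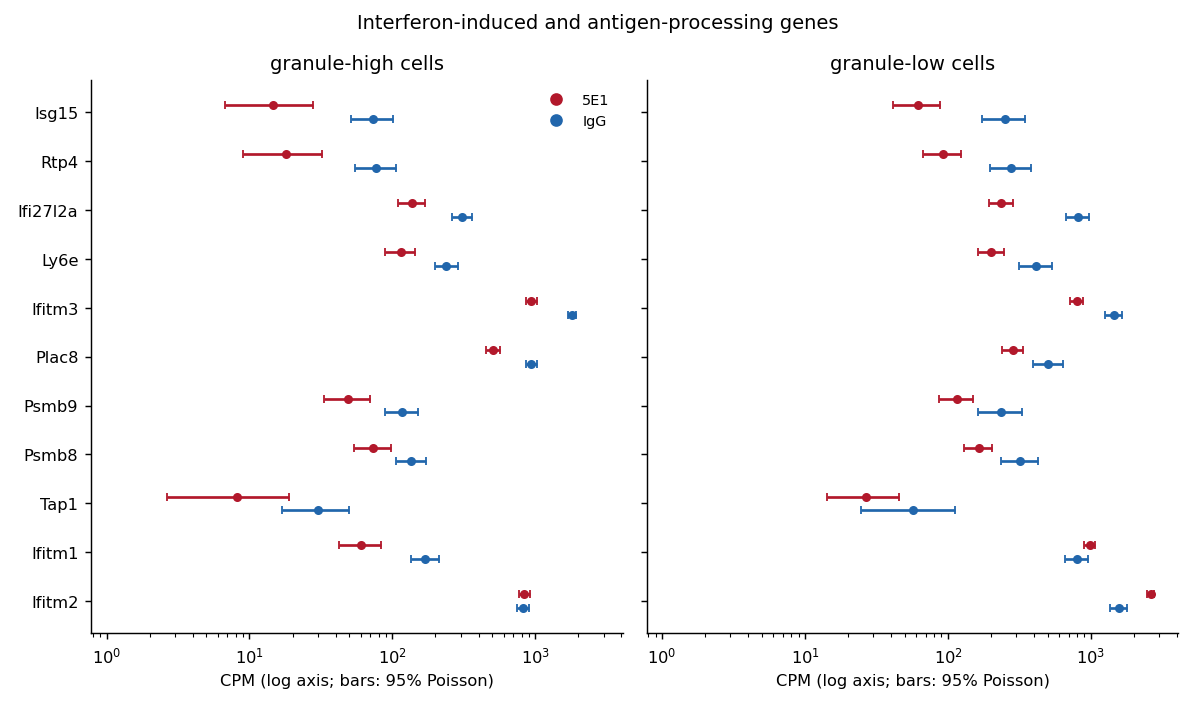
CPM (log axis) of interferon-induced and antigen-processing genes within granule-high cells (left) and granule-low cells (right), with the 5E1 library in red and the IgG library in blue; points are 1 library each and bars 95% Poisson intervals. Isg15 lies at 14.7 CPM for 5E1 and 72.8 CPM for IgG in granule-high cells, and at 61.5 CPM for 5E1 and 248 CPM for IgG in granule-low cells; Ifitm2 is higher for 5E1 in granule-low cells. Rtp4, Ifi27l2a, Ly6e, Plac8, Psmb9, Psmb8 and Tap1 were chosen after their values were seen.

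The interferon list was also lower in the other immune clusters. Its median log2 ratio was -0.55 in cluster 2, -0.89 in cluster 3, -1.51 in cluster 4, -0.51 in cluster 5, -2.16 in cluster 6, -0.53 in cluster 7 and -1.01 in cluster 8, where the median over all genes lay between -0.04 and 0.03. Isg15 was at 0.158 in cluster 6 and 0.123 in cluster 8, while in clusters 2 and 5 its intervals included 1. Its direction was thus shared by neutrophils and the 7 other immune clusters compared. Since each condition is 1 pool of pups, a difference of treatment cannot be told apart from a difference between the pools. Il1b was at 0.800 to 1.22 in clusters 3, 5, 6 and 7, at 2.41 in cluster 2 and at 2.20 in cluster 8.

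Genes of signals that act on neutrophils were also measured in the other cells. Outside cluster 1, Cxcl1, a ligand of CXCR2, had 32.0 CPM in the 5E1 library and 22.7 CPM in the IgG library, a ratio of 1.41 (1.32 to 1.51). There Cxcl2 had 166 CPM in the 5E1 library and 138 CPM in the IgG library (ratio 1.20). These sums over all other clusters move with the mix of cells, which their intervals do not cover. Cxcl1 and Cxcl2 were highest in cluster 8. Among clusters 2, 3, 5, 6, 7 and 8 the Cxcl2 ratio ran from 0.701 in cluster 3 to 1.57 in cluster 8. Cxcl12, the ligand of CXCR4 that retains neutrophils in the marrow, had 177 CPM in the 5E1 library and 143 CPM in the IgG library (ratio 1.23). Cxcl5 had a ratio of 0.795 (0.583 to 1.08), Cxcl15, a lung epithelial chemokine, 0.945, and Ppbp, a platelet chemokine, 0.297. Ppbp was highest in cluster 16, a non-immune cluster, at 490 CPM, and its source there was not tested. Csf3, the gene of G-CSF, had 7 UMIs in the 5E1 library and 8 in the IgG library. In neutrophils the Hedgehog targets Gli1, Ptch1 and Hhip had 3 UMIs in the 5E1 library and 16 in the IgG library together, under the minimum for a ratio, so that none is given.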

How the data were processed

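The measurements are UMI counts per gene and cell from 2 libraries, 1 per condition, each from 3 pooled lungs. Per the submitters' processing notes the reads went through Cell Ranger 3.1.1 on mm10. The matrices hold raw counts as deposited by the authors, and the clusters come from the authors' deposited annotation, which gives no names. No doublet caller was run here, and whether the authors ran one is not given in the sources used here.

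Counts of cluster 1 were summed per library and given as CPM of the cluster's total, with exact Poisson intervals. Ratios are 5E1 over IgG with conditional binomial intervals, and shares have Clopper-Pearson intervals. UMIs are molecules, but intervals cover counting error only. Medians of lists use log2 ratios with 0.5 UMI added, over genes whose UMIs in the libraries summed to 20 or more. With 1 library per condition no test was run. Cells were thinned to 1000 UMIs for detection. Named genes are members of the lists and the 15 highest and 15 lowest ratios among genes with at least 100 UMIs and 50 CPM in 1 library, without sex-linked, mitochondrial, ribosomal, haemoglobin, immunoglobulin and predicted genes. Genes below 5% of their level in the cluster where they are highest, in each library, were also left out. The members and lists were chosen with earlier results of these data known. Alternatives changed the minimum, the cells, the thinning and the marker rule. Python 3.11.15, numpy 2.4.6, scipy 1.17.1 and pandas 2.3.3 were used, and the summing was tested on simulated data. Some genes are not reported here.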

Additional observations from a re-analysis of the deposited data

Results flagged for a closer look

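Barcodes outside the annotation carried neutrophil transcripts. Of 1065 deposited 5E1 barcodes left out of the annotation, 178 (16.7%) had at least 10% of their UMIs in the 10 neutrophil marker genes, as had 208 of 1512 IgG barcodes (13.8%). Among annotated cells outside cluster 1, 16 of 9000 5E1 cells (0.178%) and 16 of 13253 IgG cells (0.121%) passed the same rule. The background share of empty droplets was not measured. The counts stand out because they lie outside the cells analysed. All 178 of the 5E1 barcodes and 206 of the IgG barcodes had under 500 genes, with medians of 424.5 genes and 990.5 UMIs in the 5E1 library and 410 genes and 909 UMIs in the IgG library. They made up 32.5% of all marked 5E1 barcodes and 51.4% of all marked IgG barcodes. Il1b was found in 90.4% of the 5E1 ones and 76.4% of the IgG ones, and 6 of the 5E1 ones and 35 of the IgG ones were granule-high. Whether they are intact cells was not tested.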

How the results depend on the processing

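No paired analysis was possible because each condition is 1 library and the results come from no test, and for the same reason no replicate could be left out. The higher neutrophil share, 2.53 as reported, was 1.55 by 3 of 4 markers, a rule that needs Ngp or Camp. It was 5.76 without cells holding 5 or more UMIs of other cell types, 3.35 without Y-linked UMIs and 1.95 with the marked barcodes added. Among immune clusters it was 2.19, and 2.11 with cluster 4 among them. Genes past 2-fold higher, 167 of 5444 (3.07%) as reported, came to 255 by the mean over cells, 105 under the other-type filter, 346 at a minimum of 10 UMIs and 38 at 100. Within granule-high cells they were 88 of 3317 (2.65%). Genes past 2-fold lower, 550 of 5444 (10.1%) as reported, came to 336 by the mean over cells, 103 after thinning, 80 under the other-type filter, 1007 at 10 UMIs, 75 at 100, 191 without cells under 10% and 251 without the largest cell. They were 209 of 4757 (4.39%) without cells under 2%, 140 of 3317 (4.22%) within granule-high and 185 of 2669 (6.93%) within granule-low cells. The number of genes measured can change with the setting, so counts without a share cannot be compared with each other. The specific granule median, 0.06, was -0.32 after thinning and -0.52 under the other-type filter. The chemotaxis median, 0.70, was -0.026 within granule-high cells, and the cytokine median, 0.45, was -0.21 within granule-high and 0.00061 within granule-low cells. Directions turned for the erythroid list, -2.03, at 3.71 under the other-type filter and 2.35 without cells under 10%, and for the platelet list, -7.16, at 1.53, 1.40 and 1.32 without cells under 2%, under 10% and the largest cell. The 3 platelet list values equal those of its member Pf4, itself at -3.84 as reported, so the list and the gene are not separate results. Pf4 gave 22 of the list's 25 UMIs in the 5E1 library, 13 of them in 1 cell. In the IgG library 200 of its 205 UMIs were in the cell with 40184 UMIs, so its turn rests on few UMIs. Csf3r, 1.25, turned to -0.044 within granule-high cells. The cause of these turns was not tested. Settings based on the ranges, the 2% and 10% cuts, the largest cell, the cell with most UMIs of a gene, cluster 4 and the added barcodes were chosen after seeing the data.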
